A study of Mus musculus with 4 samples.

Results

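Atp2a1, Casq1, Casq2, Srl and Pvalb encode the calcium pump, the storage proteins and the soluble buffer of skeletal muscle fibres. They were chosen by name, and all 5 were found among the 1000 genes of the deposited read count table, by the symbol in front of the RefSeq identifier. The samples were tibialis anterior muscle, a leg muscle, of Dmd Dup2 mice, whose dystrophin gene carries a duplication of exon 2. The control group is labelled as untreated. The treated group was given scAAV9.U7-ACCA, an AAV9 vector with a self-complementary genome whose U7 small nuclear RNA is made to cause exon skipping. All groups carried the duplication, and no library of wild-type muscle was analysed here. The labels state neither the age or sex of the mice nor how many animals a library holds.

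Each condition had 1 RNA-seq library (mRNA) and 1 library of ribosome footprints, the short mRNA pieces shielded by ribosomes. With 1 library per group there is no replicate check and no test, so every interval below is a 95% interval that covers counting error only. The listed genes held 125236 reads in untreated mRNA, 4248818 in treated mRNA, 3349015 in untreated footprints and 1664122 in treated footprints. Reads of Dmd, the dystrophin gene, numbered 25, 1959, 80 and 183 in that order, and gene counts do not show which exons they covered. Of 12 skeletal muscle marker genes fixed to check the labelled tissue, 10 were listed, among them Acta1, Ckm and Ttn. In whole muscle, fewer cells of a type and less RNA per cell cannot be told apart.

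When a fibre is excited, calcium leaves the sarcoplasmic reticulum, the internal store, through the ryanodine receptor and triggers contraction. Relaxation needs the pump SERCA, which returns calcium to the store, while calsequestrin and sarcalumenin bind it inside the store and parvalbumin binds it in the cytosol of fast fibres. Dystrophin-deficient muscle is known for disturbed calcium handling.

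Both calsequestrin genes encode the same kind of protein, yet Casq2 mRNA was far lower in treated muscle whereas under TMM scaling, described below, Casq1 mRNA differed by less than its counting error. Their promoters are printed for this pair, since no other pair of related genes is among the 5. Each sequence is the 150 bases before the RefSeq start, 5′ to 3′ on the gene's own strand, from RefSeq on GRCm38.p6. The Casq1 stretch is chr1:172219896-172220045 on the minus strand, and the Casq2 stretch is chr3:102086265-102086414 on the plus strand. Capitals mark matches to the E-box CANNTG, bound by myogenic factors, or to the MEF2 motif, bound by the muscle regulators of that name.
Casq1: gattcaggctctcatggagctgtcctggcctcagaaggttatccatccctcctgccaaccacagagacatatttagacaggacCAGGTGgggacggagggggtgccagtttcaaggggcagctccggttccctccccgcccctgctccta
Casq2: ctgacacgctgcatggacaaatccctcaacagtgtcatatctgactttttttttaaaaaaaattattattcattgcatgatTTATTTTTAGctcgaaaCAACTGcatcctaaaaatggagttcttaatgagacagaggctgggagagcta
Each stretch held 1 E-box, and the Casq2 stretch also held 1 MEF2 match, which did not overlap its E-box. Both strands were searched, and neither TATAAA nor a CArG box was found in either stretch. Of 32843 promoter stretches of the same length, 47.7% held an E-box and 1.67% a MEF2 match. These letters are a description of the sequence, and binding was not measured.

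The 5 genes did not all differ in the same direction. Under TMM scaling, which sets the libraries to a common level from the bulk of their genes, Atp2a1 mRNA was higher and Casq2 mRNA lower in treated muscle. Footprints were higher for Pvalb and lower for Srl and Casq2. A gene is called higher or lower here when the fold was 1.5 or more, the interval did not include 1, and the pair of libraries held at least 50 of its reads. In mRNA 2 of the 5 genes were called, while 56.6% of all 996 genes compared were called. In footprints 3 of 5 were called against 46.1% of 999 genes, and in footprints per mRNA 4 of 5 against 57.9% of 995 genes. By direction, 1 member was higher and 1 lower in mRNA, against 31.8% and 24.8% of all genes compared. The counts were 1 higher and 2 lower in footprints, against 19.9% and 26.2%, and 2 higher and 2 lower in footprints per mRNA, against 26% and 31.9%. With so few genes, none of these shares sets the members apart from the table as a whole.

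**Figure D1:**
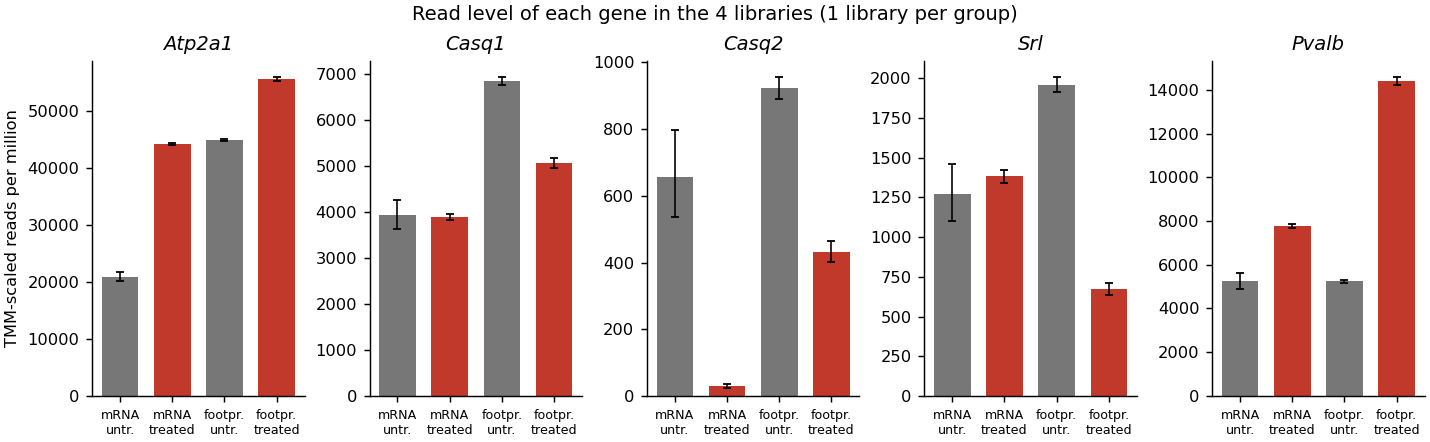
TMM-scaled CPM (vertical axis, each panel with its own scale from 0) of the 5 genes in the 4 libraries, untreated in grey and treated in red, with exact Poisson 95% intervals for counting error as bars. Casq2 mRNA stands at 657 untreated and 29.9 treated, and Pvalb footprints at 5245 untreated and 14402 treated.

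Atp2a1 (NM_007504), which encodes SERCA1, the fast-fibre calcium pump, had 3279 reads in untreated mRNA, 149002 in treated mRNA, 152732 in untreated footprints and 91347 in treated footprints. As CPM on the TMM scale (scaled CPM) these were 20927, 44112, 44845 and 55525. On this scale untreated mRNA was the low library, and the other 3 lay closer together. That pattern depends on the scaling. The authors' normalized counts were 24200.5 untreated and 27682.5 treated in mRNA, and 42081.1 untreated and 43161.4 treated in footprints. On the TMM scale the treated mRNA level was 2.11-fold higher (2.04 to 2.18), at percentile 80.8 of all genes compared. Footprints were 1.24-fold higher (1.23 to 1.25), under the fold threshold. Footprints per mRNA, that is, the footprint ratio over that of mRNA, were 1.70-fold lower (1.64 to 1.76) in treated muscle. The mRNA call of Atp2a1 was lost with the listed totals, at 1.34-fold higher (1.29 to 1.39), and with the authors' library constants, at 1.14-fold higher (1.10 to 1.18). Its footprints per mRNA were called with TMM and with DESeq2 size factors but in none of the other 4 scalings, where they were 1.11-fold to 1.40-fold lower.

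Casq1 (NM_009813) encodes calsequestrin 1, the main calcium-binding protein of the store in fast fibres. It had 616 mRNA reads untreated and 13117 treated, and 23291 footprints untreated and 8330 treated. The mRNA levels of 3931 and 3883 scaled CPM were nearly equal, and the mRNA interval held no change (1.01-fold lower, 0.932 to 1.10). Scaled footprints went from 6839 untreated to 5063 treated, 1.35-fold lower (1.32 to 1.39) and under the fold threshold. With the listed totals Casq1 mRNA was called 1.59-fold lower (1.47 to 1.73), and with the authors' constants 1.87-fold lower (1.72 to 2.02).

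Casq2 (NM_009814), the calsequestrin of heart and slow fibres that immature muscle also makes, differed the most of the 5 between the mRNA libraries. It had 103 reads in untreated mRNA and only 101 in treated mRNA, although the treated library was much deeper. The scaled mRNA level went from 657 to 29.9 scaled CPM, which is 22.0-fold lower (16.5 to 29.2) and at percentile 0.201 of the genes compared. Footprints of Casq2 did not follow to that extent. They numbered 3144 untreated and 712 treated, or 923 and 433 scaled CPM, 2.13-fold lower (1.97 to 2.32). Footprints per mRNA were therefore 10.3-fold higher (7.75 to 13.7) in treated muscle, at percentile 99.8. The table lists genes by their reads in untreated mRNA, which favours genes that are low in treated mRNA. Both percentiles of Casq2 therefore rank it within this table only. All 3 calls on Casq2 held under each of the 5 other scalings, with an mRNA log2 ratio of −5.34 to −4.48 and a footprint log2 ratio of −1.36 to −1.04.

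Srl (NM_175347) encodes sarcalumenin, a calcium-binding glycoprotein of the store that is found beside the pump. It had 199 reads in untreated mRNA, 4673 in treated mRNA, 6678 in untreated footprints and 1107 in treated footprints. The mRNA levels of 1270 and 1383 scaled CPM overlapped within counting error (1.09-fold higher, 0.945 to 1.26). Scaled footprints, in contrast, were 1961 untreated and 673 treated, 2.91-fold lower (2.73 to 3.11) and at percentile 5.31 of all genes. Footprints per mRNA of Srl were 3.17-fold lower (2.71 to 3.70), a call that held under each of the 5 other scalings, where it was 2.07-fold to 3.10-fold lower. The mRNA of Srl was 1.69-fold lower (1.46 to 1.95) and called so with the authors' constants alone.

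Pvalb (NM_013645), which encodes parvalbumin, the soluble calcium buffer of fast fibres, was the member with the highest footprint ratio. It had 822 mRNA reads untreated and 26228 treated, and 17865 footprints untreated and 23693 treated. The levels were 5246 and 7765 scaled CPM in mRNA and 5245 and 14402 in footprints, so treated footprints stood apart from the other 3 libraries. Footprints were 2.75-fold higher (2.69 to 2.80), at percentile 96.8. The mRNA was 1.48-fold higher (1.38 to 1.59), just under the fold threshold, and its log2 ratio ran from −0.32 to 0.54 over the other scalings, so its direction was not fixed. Footprints per mRNA were 1.86-fold higher (1.73 to 1.99), a call that held under each of the 5 other scalings.

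**Figure D2:**
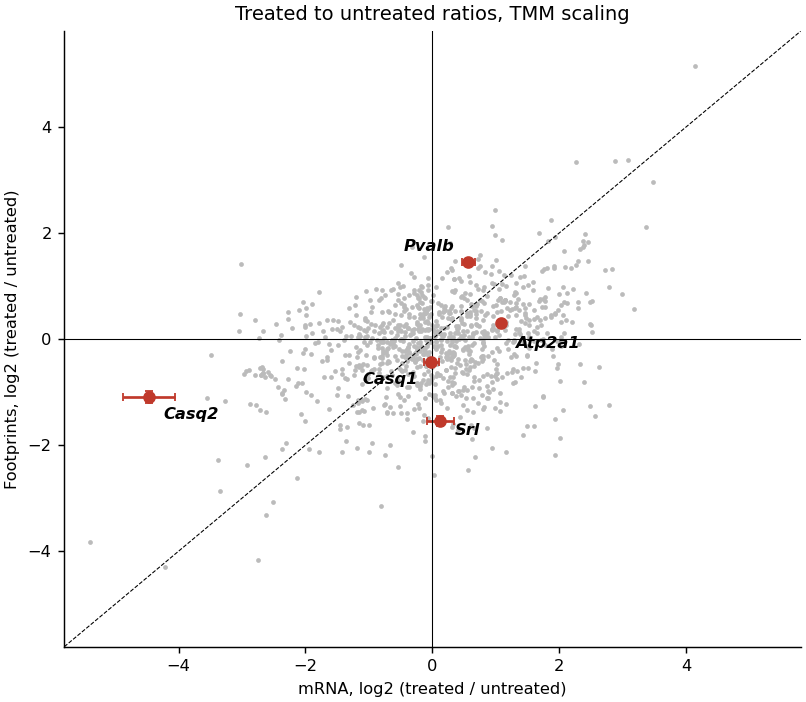
Log2 ratio of treated to untreated mRNA (horizontal) against that of footprints (vertical) under TMM scaling, for the 995 genes with at least 50 reads in both pairs (grey) and the 5 named genes (red, with 95% counting intervals); the dashed line marks equal ratios. Casq2 lies far to the left and above the dashed line, Srl below it at an mRNA ratio near 0, and Pvalb above it.

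Another scaling shifts every mRNA ratio by the same amount. Over the genes compared, the mRNA median (log2) was 0.06 with TMM and 0.04 with DESeq2 size factors. It was −0.60 for listed totals, −0.34 for the upper quartile, −0.19 for totals that leave out the 20 most abundant genes of each library, and −0.82 for the authors' constants. Of the genes called in mRNA, those higher in treated muscle made up 56.2% with TMM, against 24.2%, 35.7%, 43.7% and 16.8% in the last 4 settings. In footprints they made up 43.2% with TMM and 23.8% with the authors' constants. In footprints per mRNA the share was 44.97% with TMM and 73.9%, 59.97%, 60.7% and 73.8% in the last 4 settings. Relative to the median gene, a difference that no scaling affects, the mRNA log2 ratio was 1.02 for Atp2a1, 0.51 for Pvalb, 0.07 for Srl, −0.08 for Casq1 and −4.52 for Casq2. The same difference in footprints was 1.48 for Pvalb, 0.33 for Atp2a1, −0.41 for Casq1, −1.07 for Casq2 and −1.52 for Srl. Pvalb and Atp2a1 thus lay above the median gene in both measures and Casq2 below it in both. The genes were listed by untreated mRNA reads, which favours genes that are low in treated mRNA. Positions against the median gene, and the TMM scale set from the same genes, therefore describe this table only. With the authors' constants, for example, Pvalb mRNA lay above the median of −0.82 at a log2 ratio of −0.32.

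**Figure D3:**
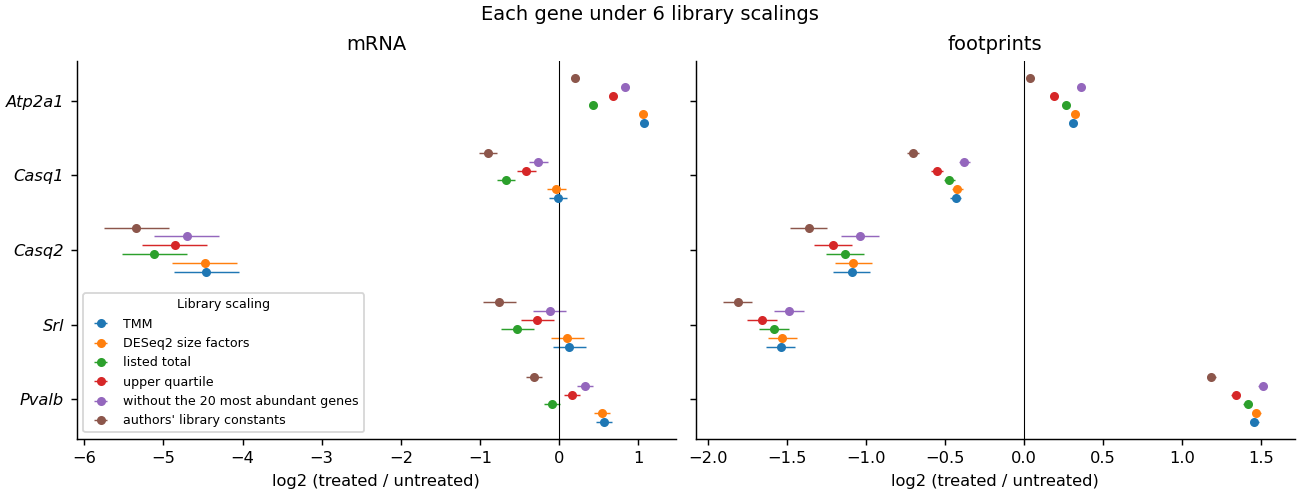
Log2 ratio of treated to untreated muscle (horizontal) for each gene (vertical) in mRNA (left) and footprints (right), under 6 library scalings shown by colour, with 95% counting intervals. Casq2 stays below 0 in both panels in each scaling, and Pvalb mRNA lies on both sides of 0.

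Pairs of members were compared by the difference of their ratios, which the scaling of the libraries cannot change. All 10 pairs differed beyond counting error in footprints, and 9 of 10 did in mRNA. The exception was Srl and Casq1, whose mRNA ratios differed by 1.10-fold with an interval of 0.937 to 1.30. In footprints the same genes parted, with the Srl ratio 2.16-fold (2.01 to 2.31) below that of Casq1. The pump and the buffer changed order between the measures. The Atp2a1 ratio was 1.42-fold above that of Pvalb in mRNA (1.32 to 1.54), whereas in footprints the Pvalb ratio was 2.22-fold above that of Atp2a1 (2.17 to 2.26). The widest gap in footprints was between Pvalb and Srl, at 8.0-fold (7.49 to 8.55). In mRNA it was between Atp2a1 and Casq2, at 46.3-fold (35.1 to 61.1).

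The calsequestrin pair shows the same independence from scaling. Of the reads on Casq1 and Casq2 together, Casq2 held 14.3% (exact binomial 95% interval 11.8 to 17.1) of those in the untreated mRNA library. The treated mRNA share was 0.764% (0.623 to 0.928). In footprints it held 11.9% (11.5 to 12.3) untreated and 7.87% (7.33 to 8.45) treated. Both treated shares were below both untreated ones, and the treated mRNA share was the lowest by far. The Casq1 to Casq2 read ratio was 21.7-fold higher (16.3 to 28.9) in treated than in untreated mRNA, but 1.58-fold higher (1.45 to 1.72) in treated than in untreated footprints. The coding sequences of both genes are related, and the sources used here do not say how reads that fit several places were counted. Any part of shared reads in the Casq2 counts was not tested.

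**Figure D4:**
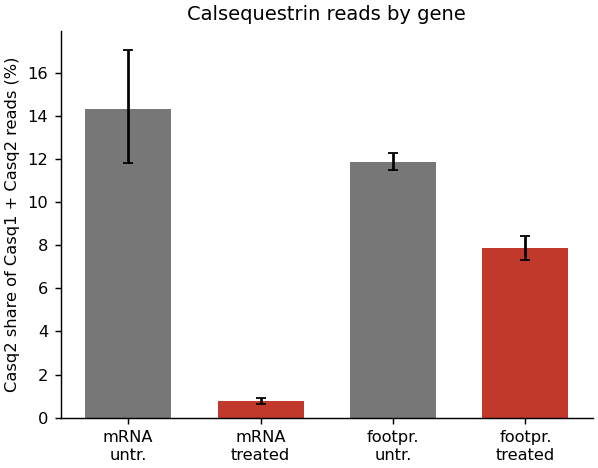
Share of Casq2 among the reads of Casq1 and Casq2 (vertical, percent) in the 4 libraries, untreated in grey and treated in red, with exact binomial 95% intervals. The share is 14.3% in untreated mRNA, 0.764% in treated mRNA, 11.9% in untreated footprints and 7.87% in treated footprints.

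Footprints per mRNA were also read within each condition, against the median listed gene of that condition. In untreated muscle Atp2a1 stood 2.12-fold above the median gene (2.05 to 2.20), Casq1 1.72-fold (1.59 to 1.87), Srl 1.53-fold (1.33 to 1.76) and Casq2 1.39-fold (1.14 to 1.69). Pvalb lay at the median, 1.01-fold below it (0.942 to 1.08). In treated muscle Atp2a1 and Casq1 were still above the median gene, at 1.27-fold (1.26 to 1.28) and 1.32-fold (1.28 to 1.35). Srl had moved to 2.04-fold below it (1.91 to 2.17), from percentile 78.2 to 21.4. Pvalb lay 1.87-fold above it (1.84 to 1.91) and Casq2 14.6-fold above it (11.9 to 18.0), at percentile 99.8. Footprints cover coding sequence and mRNA reads the whole transcript, a difference that the counting intervals do not include. A position against the median gene, or a percentile, within a condition is therefore descriptive only. These values can be compared between conditions for a gene but not between genes. That comparison has a limit: the genes were listed by untreated mRNA reads, so the untreated and treated medians were not selected alike. The part of this in the moves between conditions was not tested.

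Casq2 was read beside the slow fibre and the immature fibre genes, since both kinds of fibre make it. The table lists genes by their reads in untreated mRNA, so a gene with few reads is present only if it was not low there, and genes that are low in treated mRNA are favoured. The list counts here therefore describe the table and support nothing about Casq2. Of 9 slow fibre genes with enough mRNA reads, 6 were lower in treated mRNA and 1 was higher, against 24.8% and 31.8% of all genes compared. Their median lay at −1.14 log2 units relative to the median gene. The slow troponin T gene Tnnt1 was 42.0-fold lower (23.5 to 77.3) in mRNA and 14.3-fold lower (9.25 to 23.2) in footprints, so both of its measures were low. The slow tropomyosin Tpm3 was 4.76-fold lower (2.74 to 7.90) in mRNA but 1.17-fold lower (1.02 to 1.33) in footprints. Fhl1, whose product carries LIM domains, was 9.65-fold lower (8.52 to 10.9) and 2.25-fold lower (2.04 to 2.48) in the same order. The troponin C gene of slow fibres and heart, Tnnc1, had 18 and 15 reads in untreated and treated mRNA, under the minimum, and its footprints were 1.22-fold lower (1.02 to 1.46). The M-band gene Myom3 was 10.1-fold lower (5.97 to 16.8) in mRNA and 7.28-fold lower (4.96 to 11.1) in footprints. Mybpc1, the slow myosin-binding protein C, was 2.11-fold lower (1.98 to 2.26) and 2.58-fold lower (2.48 to 2.68). The slow myosin Myh7 went the other way from Casq2 in mRNA, at 4.07-fold higher (3.36 to 4.98), with footprints 1.10-fold lower (1.07 to 1.12). The related myosin Myh7b had log2 ratios of 0.56 in mRNA and −0.14 in footprints. For the oxygen store Mb they were 0.42 and 1.16, and for the fatty acid carrier Fabp3 −0.74 and 0.82. Myh7, Myh6 and Myh7b have related sequences, so their single values are uncertain.

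Among 8 listed immature fibre genes, 5 were lower and 1 was higher in treated mRNA, with the same counts in footprints, where 26.2% of all genes compared were lower and 19.9% higher. Myl4, the myosin light chain of embryonic muscle and atrium, was 11.7-fold lower (7.36 to 18.3) in mRNA and 2.17-fold lower (2.0 to 2.36) in footprints. Its footprint ratio was close to that of Casq2, and its mRNA was less reduced than the 22.0-fold of Casq2. Cardiac alpha-actin, Actc1, was 6.23-fold lower (5.8 to 6.68) and 4.64-fold lower (4.49 to 4.80), and the galectin gene Lgals1 was 7.60-fold lower (6.53 to 8.83) and 5.19-fold lower (4.62 to 5.85). The intermediate filament gene Des had log2 ratios of −1.0 in mRNA and −2.13 in footprints, and the imprinted gene Peg3 −0.80 and −3.16. The embryonic myosin Myh3 and the perinatal myosin Myh8 were called in neither measure, with mRNA log2 ratios of 0.15 and −0.20 and footprint ratios of 0.08 and −0.06. Their sequences are related to those of the other myosin heavy chains, so these values are uncertain as well and do not show that either gene was unchanged. Myf6, a transcription factor of the MyoD family, was 1.92-fold higher (1.24 to 3.16) in mRNA, a call that 2 of the 5 other scalings kept, and 4.38-fold higher (3.76 to 5.12) in footprints. With another scaling the call of Myh3 mRNA changed in 1 of 5 settings and that of Myh8 mRNA in 3 of 5. Of 11 heart markers only Myh6 was listed, and the other 10 were not analysed here.

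**Figure D5:**
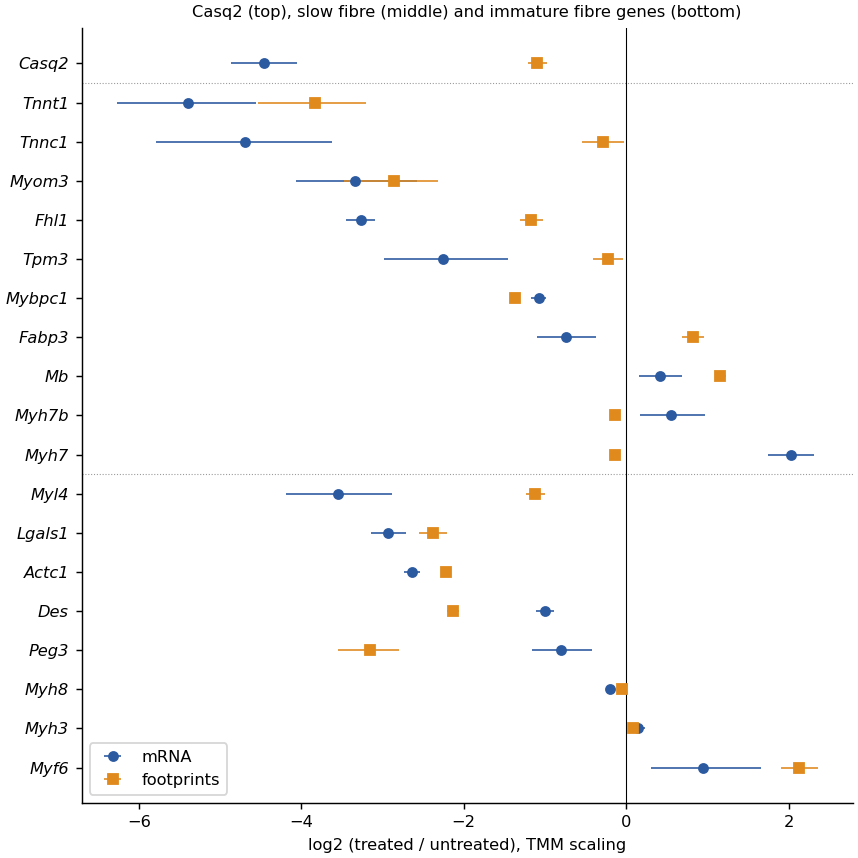
Log2 ratio of treated to untreated muscle (horizontal, TMM scaling) in mRNA (blue circles) and footprints (orange squares) for Casq2, the 10 listed slow fibre genes and the 8 listed immature fibre genes, each set sorted by mRNA ratio, with 95% counting intervals. Casq2, Tnnc1, Fhl1, Tpm3, Myl4, Tnnt1, Fabp3, Myf6 and Mb have mRNA ratios well below their footprint ratios, with Tnnc1 under the read minimum in mRNA. Lgals1, Actc1, Myom3 and Myh8 have the same order by a smaller margin. Myh7, Peg3, Des, Mybpc1, Myh7b and Myh3 show the opposite order.

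Most listed markers of other cells were lower in treated muscle, against 24.8% of all genes compared in mRNA and 26.2% in footprints. The table favours genes that are low in treated mRNA, so these counts describe the table and support nothing about Casq2. Of 16 macrophage markers 6 were listed, of which 5 were lower in mRNA and 6 in footprints, and their summed scaled CPM went from 1340 to 569 in mRNA and from 2746 to 1270 in footprints. Of 16 fibroblast and matrix genes 12 were listed, of which 9 were lower in mRNA and 11 in footprints, and their sum went from 20186 to 4635 in mRNA and from 33274 to 7301 in footprints. The exception with a call was Dcn, which encodes decorin, at 3.02-fold higher (2.35 to 3.95) in mRNA and 1.46-fold higher (1.41 to 1.51) in footprints, the latter under the fold threshold. The summed level of the 10 slow fibre genes went from 11398 to 7742 in mRNA and from 18487 to 15228 in footprints. That of the 8 immature fibre genes went from 52665 to 39988 in mRNA and from 88375 to 73917 in footprints. In untreated footprints Myh8 held 50845 and Myh3 19465 of that 88375, and the values of both are uncertain for their related sequences. The sum of the 16 fast fibre genes listed, a class that Atp2a1, Casq1 and Pvalb mark, went from 244612 to 286431 in mRNA and from 309222 to 318413 in footprints. The direction of that fast fibre mRNA sum depends on the scaling: its log2 ratio was 0.23 with TMM and 0.21 with DESeq2 size factors, but it lay below 0 in the other 4 settings, between −0.65 (authors' constants) and −0.018 (top genes left out). In footprints its log2 ratio was 0.04 with TMM and −0.23 with the authors' constants. The part of any of these in the members' ratios was not tested.

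Other genes of calcium storage and buffering were listed for 12 of 34. In mRNA 4 were higher and 1 lower, against 31.8% and 24.8% of all genes compared. The median of the 12 lay 0.36 log2 units above the median gene. In footprints 3 were higher and 3 lower, against 19.9% and 26.2%, with the median at −0.09 relative to the median gene. With so few genes, these counts do not set the list apart from the table. Hrc, a histidine-rich calcium-binding protein of the store, had log2 ratios of 0.40 in mRNA and 0.21 in footprints and was called in neither. Triadin, Trdn, which anchors calsequestrin at the release channel, was 1.81-fold higher (1.54 to 2.14) in mRNA and 1.75-fold higher (1.68 to 1.82) in footprints. With the authors' constants the log2 ratio of Trdn mRNA was −0.025, so its direction depends on the scaling, and its mRNA call was kept in 2 of the 5 other scalings. Tmem38a, the potassium channel that balances charge across the store membrane, was 3.68-fold higher (2.69 to 5.15) in mRNA, with footprints 1.14-fold lower (1.04 to 1.25). Calr, calreticulin of the endoplasmic reticulum, was called in neither measure, with log2 ratios of −0.10 and −0.25. The chaperone Hspa5 was 2.23-fold higher (1.48 to 3.53) in mRNA and 1.24-fold higher (1.14 to 1.35) in footprints, and its mRNA call was kept in 3 of the 5 other scalings.

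The release side of the cycle was listed for 7 of 15 genes, of which 4 were higher and 0 lower in mRNA (31.8% and 24.8% of all genes), and 3 higher and 2 lower in footprints (19.9% and 26.2%). Ryr1, the release channel, was 2.04-fold higher (1.90 to 2.19) in mRNA and 1.67-fold higher (1.63 to 1.72) in footprints. Like the Atp2a1 mRNA call, that of Ryr1 mRNA was kept in 3 of the 5 other scalings. Its mRNA ratio was close to that of Atp2a1, and its footprint ratio lay between those of Atp2a1 and Pvalb. The voltage sensor Cacna1s had a log2 ratio of 2.38 in mRNA and −0.81 in footprints. Long transcripts stood apart in earlier results of these data, and any part of transcript length in these ratios was not tested.

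For each member the genes with the most similar profile were sought among 681 genes with at least 20 reads in every library, by the distance between log2 scaled levels over the 4 libraries, each gene centred on its own mean. Casq1 had the closest matches, Atp5b, Eno3 and Ankrd1, at distances of 0.17, 0.17 and 0.18. Srl was nearest to 2900010M23Rik at 0.18, Ndufb9 at 0.23 and the skeletal actin Acta1 at 0.38. Pvalb was nearest to Ddx3x at 0.28, Tmem182 at 0.32 and Gpd2 at 0.35, and Atp2a1 to Adssl1 at 0.31, Ywhae at 0.32 and Coq9 at 0.35. The minimum left out genes with few mRNA reads, such as Tnnc1. Among the genes searched, Casq2 had no close match. Its nearest genes were Myl4 at 1.43, Gm5506 at 1.64 and Eno1 at 1.70, and Gm5506 and Eno1 are near-identical copies whose reads cannot be assigned with certainty.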

How the data were processed

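RNA-seq and footprint libraries of untreated and treated muscle were analysed, 1 library per group. The authors deposited 1 table of 1000 genes with read counts per gene, whole numbers per the file headers and values, and normalized read counts. The latter were read as CPM, a scale inferred here: a single constant per library turns the deposited counts into them, within 0.1, for 99.4% to 100% of genes. The submitters' processing notes name Trimmomatic, STAR, edgeR and mm9, but give no role or version. How strand and reads that fit several places were handled in counting is not given here. Rows fall by the untreated mRNA count, down to 14 reads, so genes with few reads there are missing. Of 1000 identifiers, 996, with those of all 5 members, matched RefSeq on GRCm38.p6, used for names and for promoter sequences. A promoter sequence was found for 4 members, and that of Srl is not shown.

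Raw counts were scaled with TMM (edgeR 4.0.16, R 4.3.3) over the listed genes. Ratios have exact conditional binomial 95% intervals. Footprints per mRNA, with 0.5 added to each count, and differences between members have 95% normal intervals on the log scale. Reads carried no molecular identifiers, so intervals cover counting error only. No quasi-likelihood model could be fitted with 1 library per group, and calls are about the libraries alone. The ratio script was tested on simulated data. Alternatives were DESeq2 1.42.0 size factors, listed totals, the upper quartile, totals without the 20 most abundant genes of each library, the authors' constants, no minimum or 200 summed reads, a 2-fold threshold and 5 added to each count. The members and gene lists were chosen with earlier results of these data known. Named genes are all members, up to 6 genes per list with the most reads, every listed slow and immature fibre gene, and the 3 nearest profiles per member. A gene that this rule names is not reported here. Levels per coding length, and ratios against genes of similar length, were planned but not computed, since no coding lengths were used here. The second was planned because long transcripts stood apart in the earlier results. Any part of transcript length in the ratios was not tested. Levels are therefore not compared between genes.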

Additional observations from a re-analysis of the deposited data

How the results depend on the processing

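The number of members called stayed within 1.5 times its value under each alternative run, except that a 2-fold threshold left 2 of the 4 calls in footprints per mRNA. No called ratio of the 5 members changed direction under any alternative scaling or with 5 added to each count. The scalings were also run, after seeing the data, on the named genes of the other lists. There 1 call changed direction, Trdn mRNA, at −0.025 with the authors' constants, against 0.86 with TMM. The calls on Casq2 in all 3 measures, on Pvalb and Srl in footprints, and on both in footprints per mRNA held in each of the 5 other scalings. Those on Atp2a1 held in 3 of 5 in mRNA and in 1 of 5 in footprints per mRNA, as given above. Casq1 became lower in mRNA in 2 of the 5 scalings and in footprints with the authors' constants. The Casq1 to Casq2 comparison cannot change with any scaling, by its construction. Calsequestrin reads per coding length and the length windows were not run. No paired analysis was possible because each group has 1 library. Depth limits precision in mRNA: the 199 untreated Srl reads set most of the width of its interval, and for Casq2 both mRNA libraries do, with 103 and 101 reads.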
